A study of Mus musculus with 11 samples.

Results

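The genes described here are 10 mouse genes of the proteases and protease inhibitors of the epidermis: the kallikreins Klk5, Klk7, Klk8, Klk10 and Klk11, the membrane-anchored proteases St14 and Prss8, the secreted protease Prss22, the inhibitor Spink5 and the skin protease Asprv1. They are 10 of the 24421 genes listed in the RNA-seq count tables, and all 10 were among the 14045 genes with enough counts to be tested. The group was put together by protein function and was in part chosen on the counts of these same 7 libraries, since the wound and genotype differences of Prss22 and Asprv1 were already known. No P-value is therefore given for any single member. Counts of members past a threshold come from the fits over all genes, are printed beside the share of all genes as a description, and nothing is read from them. The working name of the group, epidermal serine proteases and inhibitors, holds for 9 of the 10: Asprv1 encodes an aspartic protease of the retroviral type and is described apart.

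Serine proteases of the epidermis cut the protein bridges between cornified cells so that the outer cells can be shed, and they trim structural and antimicrobial proteins on the way. Several are made as inactive precursors in the upper living layers and switch each other on, and the inhibitor encoded by Spink5 (LEKTI) holds the kallikreins back until the pH drops near the skin surface. Matriptase (St14) and prostasin (Prss8) work together at the cell membrane and are needed for the skin barrier, for which the transcription factor GRHL3 is also required.

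RNA-seq counts and ATAC-seq regions of open chromatin were measured in epidermal keratinocytes of C57BL/6 mice (C57BL/6J in the study's methods) aged 8 weeks. The mice carried either a skin-specific deletion of Grhl3, made with Krt14-Cre and floxed Grhl3 alleles (labelled GRHL3 KO), or were littermates labelled WT, which the study's methods name Krt14-Cre-WT, with both sexes in use. Wounded samples were taken 3 days after a 4 mm punch biopsy, from the 1 mm of skin at the wound margin, and unwounded samples from skin away from the wound, and cells with intermediate or high integrin CD49F were sorted while immune, endothelial and blood cells were gated out. The RNA-seq data held 2 WT unwounded, 2 WT wounded, 1 GRHL3 KO unwounded and 2 GRHL3 KO wounded libraries, and the ATAC-seq data held 1 list of regions per condition, each from a pool described as 4 wounds of 2 mice. Krt14-Cre acts in basal keratinocytes and their descendants, so other cells of the skin keep Grhl3.

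The libraries held between 13497283 and 16807451 counts on genes, and levels are given as counts per 1000000 of this total (CPM). Grhl3 itself was counted at 122 and 83.2 CPM in WT unwounded replicates 1 and 2, 110 and 90.0 in WT wounded, 76.2 in the library labelled GRHL3 KO unwounded, and 116 and 104 in those labelled GRHL3 KO wounded. The KO-labelled wounded libraries lay within or above the WT wounded values, and a count summed over all exons cannot show whether the floxed part is missing, so each genotype stands as labelled. The study reports qPCR between the loxP sites and GRHL3 staining at the wound front as checks of the deletion, neither of which is in these tables. The KO-labelled unwounded library also stood apart from the other 6. It held 1101 CPM of Xist, against 0.178 to 1.92 in the others, and 0 counts of the Y-linked genes Ddx3y, Eif2s3y, Kdm5d and Uty, whose sum was 167 to 251 CPM in the others. The labels give no sex for any library. In comparisons with this library, a difference of sex cannot be told apart from one of genotype or wounding. Every value of KO-labelled unwounded skin below, and every difference or 2-fold count against it, rests on this library, also where that is not repeated. The tests between the replicated groups were also run without this library.

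Markers of the sorted cells were present. Basal keratinocyte markers (6 of 6 tested, Krt14 the most abundant) summed to 34663 and 39054 CPM in WT unwounded, 30890 and 44746 in WT wounded, 37006 in KO-labelled unwounded and 42911 and 36239 in KO-labelled wounded libraries. Spinous markers (6 of 6, Krt1 the most abundant) summed to 6379, 7051, 3726, 5456, 9576, 6835 and 8465 CPM in the same order. Granular markers, the layer in which most of the 10 genes are known to be made, were sparse. Of 10 listed, 8 were tested, Flg was not in the count tables and Krt2 had too few counts, and the sums were 146, 144, 140, 123, 178, 130 and 149 CPM with Ivl the most abundant and Lor at 3.94 CPM or less. In bulk libraries, fewer cells of a type and less RNA per cell cannot be told apart. The summed level of the 10 genes was 556 and 330 CPM in WT unwounded, 449 and 318 in WT wounded, 271 in KO-labelled unwounded and 315 and 401 in KO-labelled wounded libraries, so the groups overlapped and the KO-labelled unwounded library was the lowest.

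The first comparison asked how the protease genes differ at a healing wound margin. Of the 10 genes, 0 were higher and 1 was lower in WT wounded than in WT unwounded skin at an unadjusted P under 0.05 in edgeR, against 3.18% of all tested genes that were higher and 1.67% that were lower. After adjustment over all 14045 genes, 0 of the 10 passed by edgeR, against 0.0285% of all genes (4 genes), and 0 of the 10 by DESeq2, against 23 of all genes. The groups did not overlap in CPM for 1 gene that was higher (Prss8) and 3 that were lower (Klk5, Klk11 and Asprv1), against 15.2% higher and 18.3% lower among all genes. The median log2 fold change was -0.13 over the 10 genes and 0.003 over all genes. The count of 1 was 2 without WT unwounded replicate 1, 3 without WT unwounded replicate 2, 3 without WT wounded replicate 1 and 2 without WT wounded replicate 2, and it was 1 without the KO-labelled unwounded library. The 4 genes past the adjusted threshold numbered 2, 0, 29 and 8 when the same 4 libraries were left out in turn, and 0 without the KO-labelled unwounded library.

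The second comparison asked how they differ between genotypes at the wound margin. In KO-labelled wounded against WT wounded libraries, 1 of the 10 was higher and 1 lower at an unadjusted P under 0.05, against 1.96% and 2.08% of all tested genes. They were Asprv1 and Prss22, the genes whose differences were known when the group was put together, so nothing is read from these counts. Adjusted over all genes, 0 of the 10 passed by edgeR, against 0.0% of all genes, and 0 of the 10 by DESeq2, against 2 of all genes. The groups did not overlap for 1 gene that was higher (Asprv1) and 2 that were lower (Klk8 and Prss22), against 13.8% and 17.2% of all genes. The median log2 fold change was -0.05 over the 10 genes and -0.01 over all genes. With each library left out in turn, the difference between genotypes was -4.12 to -1.09 for Prss22 and 0.85 to 1.20 for Asprv1. How the counts of members moved with a library left out is given with those of all genes in the section on processing.

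The third comparison, wounded against unwounded skin of mice labelled GRHL3 KO, had 1 unwounded library and no test. A gene was counted when both wounded libraries were at least 2-fold from the unwounded library in the same direction. By this rule 1 of the 10 was higher (Klk10) and 1 lower (Prss22), against 5.69% and 3.89% of all genes. The median log2 difference was 0.25 over the 10 genes and 0.0 over all genes. The P-values of the tested comparisons measure the spread between these libraries alone, since the labels do not say which came from separate animals, and an exact permutation test of 2 against 2 libraries could not go below 0.333.

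**Figure D1:**
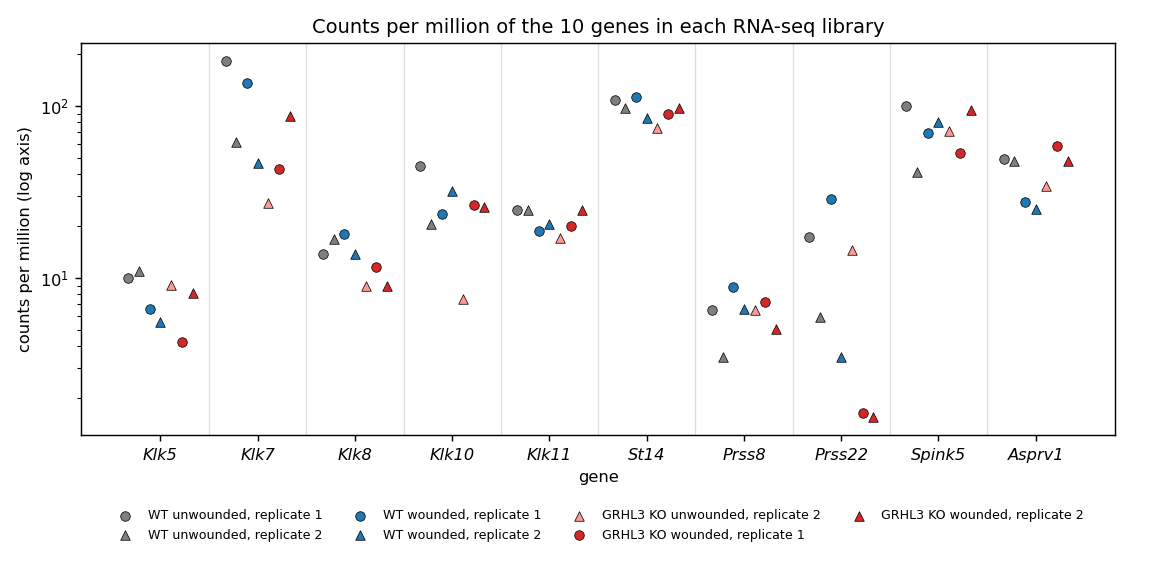
CPM (log axis) of each of the 10 genes in each of the 7 RNA-seq libraries, with colours for the groups and shapes for the replicates. Prss22 spans the widest range, from 1.54 to 28.6 CPM, and Asprv1 is at 27.7 and 25.0 CPM in the WT wounded libraries, below the other 5.

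Per kilobase of exon, the mean level over the 7 libraries was highest for Klk7 at 43.9 CPM per kb, with libraries from 14.3 to 95.9. St14 followed at 29.1 (22.6 to 34.4), Asprv1 at 26.7 (16.1 to 37.6), Klk10 at 18.8 (5.50 to 32.7) and Spink5 at 15.2 CPM per kb (8.64 to 20.9). Klk11 was at 14.7 (11.7 to 16.9), Klk8 at 9.90 (6.73 to 13.5), Prss22 at 7.87 (1.16 to 21.6), Klk5 at 6.27 (3.39 to 8.88) and Prss8 at 3.40 CPM per kb (1.86 to 4.77). The range of each gene over the libraries overlapped those of its neighbours in this order, while the ranges of St14 and Prss8, for example, did not overlap. Overlapping ranges do not show how such genes stood within each library, which was not compared. Grhl3 on the same scale was at 36.0 CPM per kb.

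Fitted differences below are log2 fold changes with their standard error, from 2 against 2 libraries. Klk5, the trypsin-like kallikrein that activates other kallikreins and is the main target of LEKTI, was counted at 9.94 and 11.0 CPM in WT unwounded, 6.54 and 5.51 in WT wounded, 9.04 in KO-labelled unwounded and 4.20 and 8.12 in KO-labelled wounded libraries. Both WT wounded libraries were below both WT unwounded libraries, and the KO-labelled wounded libraries lay on either side of the WT wounded pair. The wound difference in WT was -0.77 ± 0.42, and -0.90 to -0.67 when each library was left out in turn. Between genotypes in wounded skin it was 0.04 ± 0.42, from -0.46 without KO-labelled wounded replicate 2 to 0.43 without replicate 1, and -0.06 without WT wounded replicate 2.

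Klk7, the chymotrypsin-like kallikrein that cuts corneodesmosomes, was counted at 182 and 61.5 CPM in WT unwounded, 135 and 46.2 in WT wounded, 27.1 in KO-labelled unwounded and 42.6 and 87.4 in KO-labelled wounded libraries. In WT, replicate 1 was the higher of the pair in both conditions and the wounded and unwounded ranges overlapped, while the KO-labelled unwounded library was the lowest of the 7. The wound difference in WT was -0.41 ± 0.45 and turned to 0.59 without WT unwounded replicate 1 and to 0.16 without WT wounded replicate 2, against -1.37 without WT wounded replicate 1. The genotype difference in wounded skin was -0.47 ± 0.46 and turned to 0.50 without WT wounded replicate 1, against -1.03 without WT wounded replicate 2. Both KO-labelled wounded libraries were above the unwounded library, by 0.68 and 1.63 on the log2 scale, of which only the second passed 2-fold.

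Klk8, a trypsin-like kallikrein also known as neuropsin, was counted at 13.8 and 16.8 CPM in WT unwounded, 17.9 and 13.7 in WT wounded, 8.96 in KO-labelled unwounded and 11.6 and 8.89 in KO-labelled wounded libraries. All 3 KO-labelled libraries were below all 4 WT libraries, and the WT conditions overlapped. The genotype difference in wounded skin was -0.60 ± 0.33, between -0.83 and -0.39 with each library left out in turn, and the wound difference in WT was 0.07 ± 0.33, turning to -0.06 without WT unwounded replicate 1 and to -0.13 without WT wounded replicate 1, against 0.23 without WT wounded replicate 2.

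Klk10, a kallikrein-family protease expressed in upper epidermal layers, was counted at 44.9 and 20.6 CPM in WT unwounded, 23.5 and 31.9 in WT wounded, 7.56 in KO-labelled unwounded and 26.5 and 25.9 in KO-labelled wounded libraries. The groups of the other 6 libraries overlapped, and the KO-labelled unwounded library was below all of them. The KO-labelled wounded libraries were 1.82 and 1.71 higher than it in log2 CPM, which is why Klk10 was counted by the 2-fold rule, a count that rests on that library. The wound difference in WT was -0.22 ± 0.33 and turned to 0.46 without WT unwounded replicate 1, against -0.68 without replicate 2, and the genotype difference in wounded skin was -0.06 ± 0.33 and turned to 0.20 without WT wounded replicate 2, against -0.26 without replicate 1.

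Klk11, a trypsin-like kallikrein, was counted at 24.8 and 24.6 CPM in WT unwounded, 18.7 and 20.5 in WT wounded, 17.1 in KO-labelled unwounded and 20.0 and 24.7 in KO-labelled wounded libraries. It varied least of the 10, by 1.45-fold from the lowest to the highest library. Both WT wounded libraries were below both WT unwounded libraries (-0.31 ± 0.26), whereas both KO-labelled wounded libraries were above the KO-labelled unwounded library (0.25 and 0.47). Between genotypes in wounded skin the difference was 0.21 ± 0.26 (0.09 to 0.33 with each library left out), with ranges that overlapped.

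St14, which encodes matriptase, the membrane protease upstream of prostasin, was counted at 108 and 97.3 CPM in WT unwounded, 112 and 84.6 in WT wounded, 73.8 in KO-labelled unwounded and 89.3 and 97.6 in KO-labelled wounded libraries. All groups with 2 libraries overlapped, and only the KO-labelled unwounded library lay below the rest. The differences were -0.04 ± 0.19 for the wound in WT and -0.05 ± 0.19 between genotypes in wounded skin, and both turned positive when 1 library was left out. The first became 0.05 without WT unwounded replicate 1 and 0.13 without WT wounded replicate 2, against -0.25 without WT wounded replicate 1, and the second 0.16 without WT wounded replicate 1, against -0.23 without WT wounded replicate 2.

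Prss8, which encodes prostasin, the membrane-anchored partner of matriptase, was counted at 6.52 and 3.45 CPM in WT unwounded, 8.83 and 6.55 in WT wounded, 6.52 in KO-labelled unwounded and 7.23 and 5.04 in KO-labelled wounded libraries. Both WT wounded libraries were above both WT unwounded libraries, although 6.55 and 6.52 CPM hardly differ, and the other groups overlapped. The wound difference in WT was 0.65 ± 0.48, 0.25 without WT unwounded replicate 2 and 1.19 without WT unwounded replicate 1. Between genotypes in wounded skin it was -0.30 ± 0.47, from -0.61 to -0.03 with each library left out.

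Prss22, a trypsin-like protease of epithelia also called tryptase epsilon, was counted at 17.2 and 5.95 CPM in WT unwounded, 28.6 and 3.44 in WT wounded, 14.6 in KO-labelled unwounded and 1.64 and 1.54 in KO-labelled wounded libraries. Both KO-labelled wounded libraries were the lowest of the 7, with 25 and 22 counts, and the next lowest was WT wounded replicate 2 with 53 counts. The WT wounded libraries were themselves far apart, with 476 counts in replicate 1, and their range enclosed both WT unwounded libraries. The genotype difference in wounded skin was -3.30 ± 0.75, and its size rested on WT wounded replicate 1: it was -1.09 without that library and -4.12 without WT wounded replicate 2. Blocking on the replicate number gave -2.74, with the KO-labelled unwounded library numbered 2 by its label, although its deposited table is numbered 1. The wound difference in WT was 0.49 ± 0.65 and became -1.72 without WT wounded replicate 1, -0.09 without WT unwounded replicate 2, 1.46 without WT unwounded replicate 1 and 1.31 without WT wounded replicate 2. Among KO-labelled libraries the wounded ones were 3.03 and 3.19 lower in log2 CPM than the unwounded library.

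Spink5, whose product LEKTI inhibits Klk5 and other kallikreins, was counted at 100 and 41.4 CPM in WT unwounded, 69.5 and 80.4 in WT wounded, 71.8 in KO-labelled unwounded and 53.3 and 94.3 in KO-labelled wounded libraries. The lowest and the highest library were both WT unwounded, and every other library lay between them. The differences were 0.11 ± 0.32 for the wound in WT and -0.01 ± 0.32 between genotypes in wounded skin. The first was -0.40 without WT unwounded replicate 2, 0.90 without replicate 1 and -0.02 without WT wounded replicate 2, and the second became 0.11 without WT wounded replicate 2, 0.33 without KO-labelled wounded replicate 1 and -0.43 without KO-labelled wounded replicate 2.

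Asprv1 encodes the aspartic protease SASPase, which processes profilaggrin in the granular layer. It was counted at 48.7 and 47.7 CPM in WT unwounded, 27.7 and 25.0 in WT wounded, 34.2 in KO-labelled unwounded and 58.2 and 47.6 in KO-labelled wounded libraries. The replicates of each group were close, the WT wounded libraries were the lowest of the 7, and neither the WT unwounded nor the KO-labelled wounded libraries overlapped them. The wound difference in WT was -0.85 ± 0.22 (-0.92 to -0.79 with each library left out) and the genotype difference in wounded skin was 1.03 ± 0.22 (0.85 to 1.20). In KO-labelled libraries the wounded ones were 0.79 and 0.43 higher than the unwounded library. The 2 tested comparisons share the WT wounded libraries, so these libraries enter both differences.

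Spinous markers were compared with Asprv1. Of the 6, 4 were lower in WT wounded than in WT unwounded libraries at an unadjusted P under 0.05, against 1.67% of all tested genes. In KO-labelled wounded against WT wounded libraries 5 were higher at that threshold, against 1.96%, and 0 passed after adjustment in either comparison. The median log2 fold changes of the 6 were -0.45 and 0.59, in the direction of Asprv1. Both comparisons share the WT wounded libraries, of which replicate 1 had the lower spinous sum (3726 CPM, against 5456 in replicate 2). Without replicate 1 the differences were -0.32 and 0.43 for Krt1, -0.53 and 0.35 for Dsc1, and 0.003 and 0.39 for Dsg1a. In the third comparison the median was -0.32 for the spinous markers and 0.61 for Asprv1. There Krtdap and Dsc1 were, like Asprv1, higher in both KO-labelled wounded libraries than in the unwounded one, and Krt1, Krt10, Sbsn and Dsg1a were lower in both. The spinous sum was highest (9576 CPM) in the KO-labelled unwounded library, mostly from Krt1 (3980) and Krt10 (4259), and Asprv1 was at 34.2 CPM there. Of the granular markers, 0 and 1 (Hrnr, higher) passed the same threshold, with medians of 0.05 and 0.54. Whether the cell layers had a part in the values of Asprv1 was not tested.

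**Figure D2:**
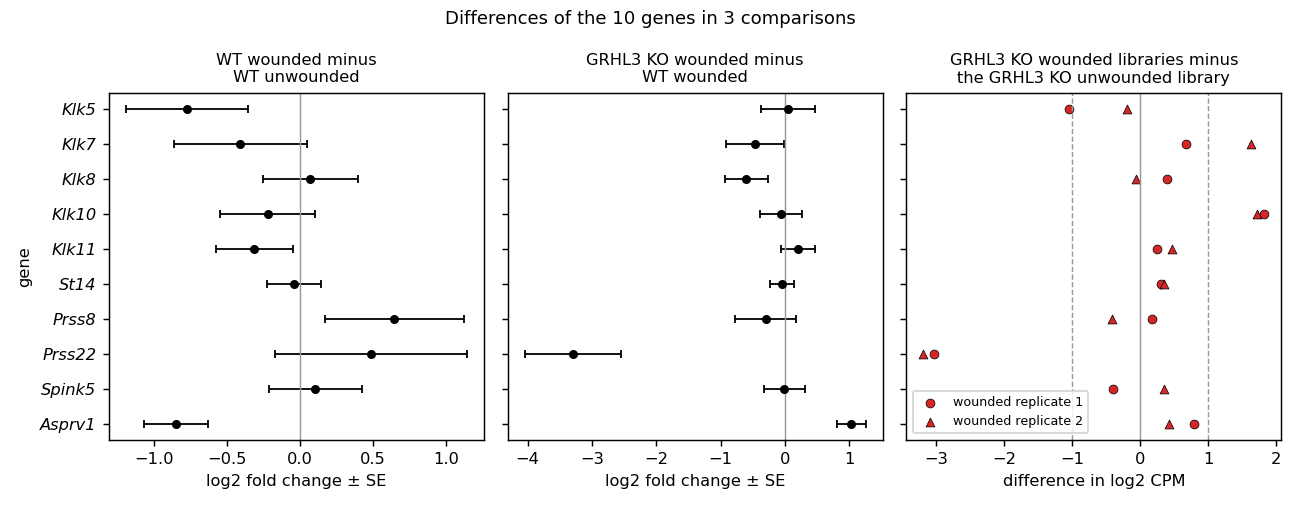
Differences of the 10 genes on the log2 scale. The left and middle panels show edgeR log2 fold changes with standard errors from 2 against 2 libraries, and the right panel shows each KO-labelled wounded library minus the KO-labelled unwounded library, with dashed lines at 2-fold. Asprv1 is at -0.85 in the left and at 1.03 in the middle panel, and Prss22 is at -3.30 in the middle panel.

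In unwounded skin the KO-labelled library, which also stood apart in Xist and the Y-linked genes, was below both WT libraries in 7 of the 10 genes (Klk5, Klk7, Klk8, Klk10, Klk11, St14 and Asprv1), against 34.5% of all tested genes. The log2 differences from WT replicates 1 and 2 were -2.69 and -1.11 for Klk7 and -2.50 and -1.37 for Klk10. For Asprv1 they were -0.46 and -0.41, and for Klk5 only -0.09 and -0.21. Prss22 and Spink5 lay between the WT libraries, and Prss8 was level with WT replicate 1. Without this library there is no KO-labelled unwounded value, so a difference of genotype at rest was not tested.

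The rest of the kallikrein family was detected in part. Of 8 further kallikreins, 4 were tested (Klk6, Klk9, Klk13 and Klk14) and 3 had 0 counts in every library. The 4 held 0 genes past an unadjusted P under 0.05 in either tested comparison. Klk14, another trypsin-like kallikrein of the outer epidermis, was the most abundant, at 21.3 and 42.9 CPM in WT unwounded, 17.7 and 34.4 in WT wounded, 4.96 in KO-labelled unwounded and 12.7 and 84.1 in KO-labelled wounded libraries. Like Klk7 and Klk10 it was lowest in the KO-labelled unwounded library, and by the 2-fold rule Klk13, listed at 0 in that library, and Klk14 were higher in KO-labelled wounded skin. Klk6 stayed between 1.19 and 7.23 CPM.

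Of 18 other trypsin-like proteases listed, 14 were tested. In WT, 4 were higher in wounded skin at an unadjusted P under 0.05 (Tmprss11f, Prss12, Prss23 and Prss36), 0 were lower and 0 passed after adjustment. Between genotypes in wounded skin 0 passed either threshold. Of all tested genes, 3.18% were higher and 1.67% lower in WT wounded skin at an unadjusted P under 0.05. Between genotypes 1.96% were higher and 2.08% lower, and these shares of all genes hold for the lists that follow as well. Prss23 was at 60.4 and 41.9 CPM in the unwounded and at 71.3 and 67.8 in the wounded WT libraries (0.47 ± 0.21), and it no longer passed that threshold without WT unwounded replicate 2 (0.22), WT wounded replicate 1 (0.43) or WT wounded replicate 2 (0.49), or with only the 4 libraries compared (0.47). Prss36 had 2 counts in the WT unwounded and 34 in the WT wounded libraries together, a ratio of 17.1 with a counting interval of 4.39 to 147.1 (95% Clopper-Pearson, counting error alone), and from a fitted 3.92 it did not pass without WT unwounded replicate 1 (3.98) or 2 (3.85), without WT wounded replicate 1 (2.74) or with the replicate block (3.78). Htra1, a secreted protease and the most abundant of the list, ranged from 119 to 183 CPM with overlapping groups.

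Of 25 other inhibitors listed, 14 were tested. Most of these are serpins, many of which trap their target protease in a covalent complex, although Serpinb5 (maspin) is not known to inhibit proteases in this way. In WT wounded skin Serpinb1a was higher (0.88 ± 0.35) and Serpinb11 lower (-1.28 ± 0.34) at an unadjusted P under 0.05, and Serpinb1a did not pass without WT unwounded replicate 1 (0.62) or WT wounded replicate 2 (0.41). Between genotypes in wounded skin Serpinb7 (1.08 ± 0.41) and Serpinb12 (2.44 ± 0.94) were higher and 0 were lower, and 0 passed after adjustment in either comparison. Serpinb12 did not pass without WT wounded replicate 1 (2.30) or KO-labelled wounded replicate 1 (1.54). The median difference between genotypes was 0.31 over the 14 inhibitors and -0.01 over all genes. Serpinb2 was the most abundant inhibitor at 662 to 1284 CPM, followed by Serpinb5 at 370 to 520, and the groups of Serpinb2 overlapped in both comparisons.

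Substrates and targets of these proteases were tested for 11 of 12 genes listed, with Flg not in the count tables. The desmosomal cadherin Dsc1, cut during shedding, was at 145 and 164 CPM in WT unwounded, 91.4 and 105 in WT wounded, 111 in KO-labelled unwounded and 136 and 128 in KO-labelled wounded libraries. Like Asprv1 it was lowest in the WT wounded libraries, with -0.63 ± 0.17 for the wound in WT and 0.45 ± 0.17 between genotypes. Dsg1a, the desmoglein of the upper layers and the most abundant substrate, was higher in KO-labelled wounded libraries (0.53 ± 0.16), and Epcam, a membrane protein cut by matriptase, was lower (-0.58 ± 0.22). These were the genes of the list with an unadjusted P under 0.05, and 0 passed after adjustment. Without WT wounded replicate 1 none of the 3 passed between genotypes (0.35 for Dsc1, 0.39 for Dsg1a and -0.26 for Epcam), nor did Dsc1 (0.38) and Epcam (-0.40) without KO-labelled wounded replicate 1. Dsc1 and Dsg1a also stand among the spinous markers above. Of 8 other proteases of cornification, all tested, 1 was lower in WT wounded skin at an unadjusted P under 0.05 (Ctsd, the lysosomal aspartic protease cathepsin D, -0.50 ± 0.16, and past it no longer at -0.40 without WT unwounded replicate 2), and 0 differed by that threshold between genotypes. Capn1, a calcium-dependent cysteine protease and the next most abundant, was at 181 to 266 CPM.

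The genes most like Prss22, Asprv1 and Klk5 were sought by the Pearson correlation of log2 CPM over the 7 libraries, which share groups and replicates. For Prss22 they included Tns3 (r = 0.971) and Irx1 (0.966), both lower in the KO-labelled wounded than in the WT wounded libraries but over narrow ranges, Tns3 from 108 to 176 CPM. For Asprv1 they were Polr2i (0.960), Maoa (0.945) and Ltb4r2 (0.926), and each was lower in both WT wounded than in both WT unwounded and both KO-labelled wounded libraries. Klk5 was most like Ppm1a (0.975), Dtx4 (0.972) and Klhl29 (0.970), which like Klk5 were lowest in KO-labelled wounded replicate 1. The search covered those of the 14045 tested genes with a mean log2 CPM of at least 1. With 7 libraries and many genes to choose from, correlations of this size describe the pattern and are given without a P-value.

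On mouse chromosome 7 (build mm10), the 5 kallikreins lay in 1 cluster on the plus strand, with Klk9 between Klk10 and Klk8 and Klk6 between Klk7 and Klk5, in the order Klk11 (43774604 to 43779263), Klk10 (43781035 to 43785410), Klk8 (43797577 to 43803826), Klk7 (43811294 to 43816359) and Klk5 (43841971 to 43851181). Klk11, Klk10 and Klk7 were each lowest in the KO-labelled unwounded library, Klk8 was lower in all 3 KO-labelled than in the WT libraries, and Klk5 was lowest in KO-labelled wounded replicate 1. A transcript on the other strand, 2310002F09Rik, overlaps Klk8, Klk10 and Klk11, and whether the counts are stranded is not stated. Prss8 lay elsewhere on chromosome 7 (127925716 to 127930104, minus strand), St14 on chromosome 9 (31089402 to 31131853, minus), Prss22 on chromosome 17 (23993534 to 23998100, minus), Spink5 on chromosome 18 (43963235 to 44022501, plus) and Asprv1 on chromosome 6 (86628164 to 86629710, plus), where it is a gene of 1 exon.

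ATAC-seq regions, as the study's lists give them, were taken as belonging to a gene when they lay in it or within 5 kb. The lists held 10769 regions for WT unwounded, 36872 for WT wounded, 29364 for KO-labelled unwounded and 22474 for KO-labelled wounded skin, covering from 4.43 Mb in WT unwounded to 18.0 Mb in WT wounded skin, with 1 list per condition and no replicate. A region was listed near 4 of the 10 genes in WT unwounded skin (Klk10, Klk11, Prss22 and Spink5), against 36.0% of 19902 protein-coding genes. It was listed near all 10 in WT wounded skin, against 64.3%, and near all 10 in KO-labelled unwounded skin, against 60.4%. In KO-labelled wounded skin it was 8, all but Klk5 and Asprv1, against 50.8%. With each list shortened to the length of that of WT unwounded skin it was 5 in WT wounded, against 32.6% of all genes, 6 in KO-labelled unwounded, against 34.0%, and 4 in KO-labelled wounded skin, against 32.8%. Neighbouring kallikreins could be counted for the same region. Klk10 and Klk11 were so in WT unwounded skin, and Klk10 with Klk11 and Klk7 with Klk8 in KO-labelled wounded skin.

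Joined over the lists, 20 regions lay near the 10 genes, of which 6 stood in all 4 lists, 5 in 3, 5 in 2 and 4 in 1, against 22.2%, 21.7%, 20.5% and 35.6% of all 42950 joined regions. WT unwounded skin had 6 of the 20, WT wounded 17, KO-labelled unwounded 18 and KO-labelled wounded 12, against 24.9%, 85.6%, 67.9% and 51.9% of all. The 17 of WT wounded skin included all 6 of WT unwounded skin, 15 of the 18 of KO-labelled unwounded skin and all 12 of KO-labelled wounded skin. A region listed in some conditions is a call of the peak caller and not a measured difference in accessibility.

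Regions in all 4 lists lay at Spink5, Klk10 and Prss22. That of Prss22 was missing from both KO-labelled lists with lists of equal length, and from those of WT unwounded and KO-labelled wounded skin at a q of at most 0.01. Spink5 had 4 of the 6: 1272 bases before its start, over the start, in an intron and over an exon, which the listing of WT unwounded skin did not reach, and this last region had fold enrichments over background of 5.46, 6.57, 5.26 and 6.15 in WT unwounded, WT wounded, KO-labelled unwounded and KO-labelled wounded skin. The region upstream of Klk10 (43780324 to 43781349) had 3.86, 4.86, 4.22 and 4.14 in the same order, and it reached the start of the gene in KO-labelled wounded skin alone, ending 306, 25 and 159 bases before it in the other 3 lists. The region 2019 bases before the start of Prss22 (24000119 to 24000770) had 3.39, 5.50, 3.97 and 3.59. In KO-labelled wounded skin, where the counts of Prss22 were lowest, the listed part was 24000554 to 24000766, against 24000119 to 24000718 in WT wounded skin.

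At Asprv1, a region over the start (86627818 to 86628228) was listed in WT wounded (enrichment 4.64) and KO-labelled unwounded skin (3.93) and in neither of the other 2 lists. With lists of equal length it was in none of the 4, and at a fold enrichment of at least 4 in WT wounded skin alone. Klk5 had a region over its annotated start, covering no exon of the basic annotation, in KO-labelled unwounded skin alone (43841968 to 43842191, 3.52) and another beyond its end in WT wounded skin alone (43855931 to 43856173, 3.52).

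The remaining kallikrein regions lay between or within the genes of the cluster. Between Klk8 and Klk7, 2975 bases before the start of Klk7, a region (43807898 to 43808319) was listed in WT wounded (4.02), KO-labelled unwounded (4.72) and KO-labelled wounded skin (3.74). Another beyond the end of Klk7 (43821154 to 43821757) was in the same 3 lists. In KO-labelled wounded skin its listed part (43821444 to 43821757) began more than 5 kb from Klk7. As a joined region it is still among the 12 counted for that list above. A region over an exon of Klk10 (43782557 to 43782925) was listed in WT wounded (2.74) and KO-labelled unwounded skin (3.67). Within 5 kb of these 5 genes, WT unwounded skin had the region upstream of Klk10 alone. A region in an intron of Klk8 (43799948 to 43800168) and another beyond the end of Klk10 (43788244 to 43788426) were listed in KO-labelled unwounded skin alone. St14 had 4 regions, at its start, in 2 introns and over an exon, and the exon region (31108586 to 31108902) had enrichments of 5.23, 5.24 and 4.67 in WT wounded, KO-labelled unwounded and KO-labelled wounded skin, where the region at the start (31131276 to 31132220) had 4.52, 3.34 and 5.09 and in KO-labelled unwounded skin lay 55 bases inside the gene. Prss8 had 2, the first at its 3′ end, which reached the gene in KO-labelled unwounded skin alone, over untranslated sequence of Prss8 and Kat8, and the second 2284 bases before its start, in untranslated sequence of Prss36.

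**Figure D3:**
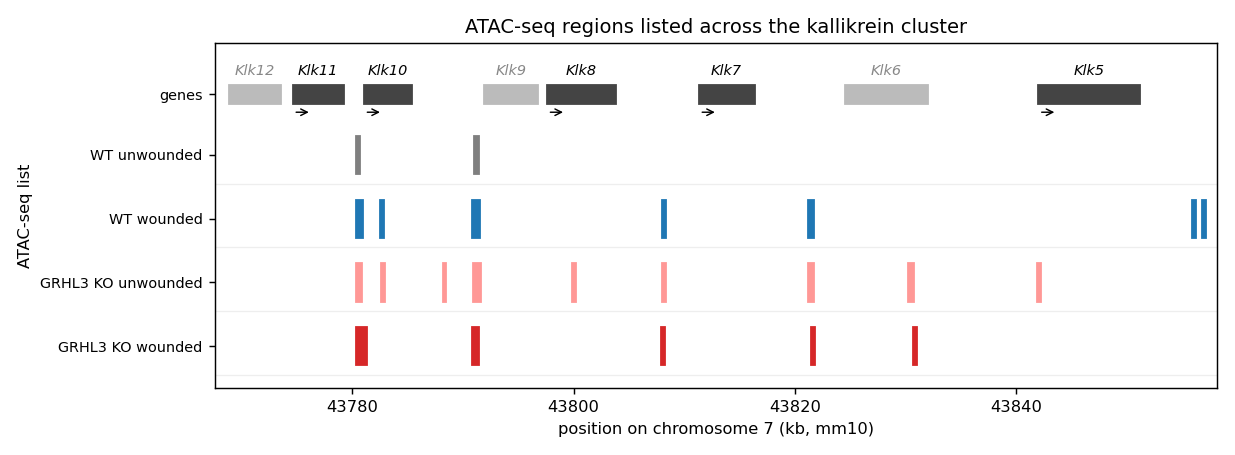
Map of the kallikrein cluster on chromosome 7 (kb, mm10), with the 5 genes and, in grey, their neighbours Klk12, Klk9 and Klk6 on top, and all regions listed in each ATAC-seq condition below. The region upstream of Klk10 and another between Klk10 and Klk9 (43790807 to 43791614), which lies more than 5 kb from the 5 genes, stand in all 4 lists and are those of WT unwounded skin here.

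Sequence motifs were counted on both strands, as matches of letters and not as binding sites. The core of the GRHL motif, AACNNGTT, was present in 4.20% of 32851 RefSeq promoter windows of 300 bases (mm10) and in 0 of the 7 windows of the 6 genes that matched the table (Asprv1, Klk5, Klk7, Klk8, Klk10 and Klk11). Among windows of 300 bases at the centre of listed regions it was in 6.35% of all 42950 and in 1 of the 20 near the 10 genes, the region over the start of Spink5. Over the whole length of the regions it was in 4307 of all and in 3 of the 20, with the region over an exon of Klk10 and that at the 3′ end of Prss8 in addition. The AP-1 motif TGANTCA, chosen after the data were seen, was in 7.81% of promoter windows and 0 of the 7, in 27.6% of all region centres and 7 of the 20, and in 14757 of the whole regions and 7 of the 20.

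The promoter window of Asprv1 is shown because its start lay in a region listed in WT wounded and KO-labelled unwounded skin; it holds neither motif, so it has no capitals (chr6:86627924-86628223, plus strand, from RefSeq).
Asprv1 promoter window: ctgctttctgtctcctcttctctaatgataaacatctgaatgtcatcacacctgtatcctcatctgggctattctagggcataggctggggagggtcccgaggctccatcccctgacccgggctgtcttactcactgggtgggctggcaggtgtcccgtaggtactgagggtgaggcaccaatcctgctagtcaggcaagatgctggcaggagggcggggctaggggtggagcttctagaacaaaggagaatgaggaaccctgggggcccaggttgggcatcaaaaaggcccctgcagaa

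A stretch upstream of Prss22 is shown from the centre of the region of WT wounded skin. The region of KO-labelled wounded skin (24000554 to 24000766) covers only the edge of this stretch and not its AP-1 letters. The region upstream of Klk10 is shown because it was listed in all 4 conditions, and the region between Klk8 and Klk7 because it was listed in every condition except WT unwounded. Each is read 5′ to 3′ along the strand of the gene from mm10, with the AP-1 letters in capitals where they occur. They lie at chr17:24000268-24000567 (minus strand), chr7:43780406-43780705 (plus) and chr7:43808017-43808248 (plus), and the last holds neither motif.
Prss22 upstream region: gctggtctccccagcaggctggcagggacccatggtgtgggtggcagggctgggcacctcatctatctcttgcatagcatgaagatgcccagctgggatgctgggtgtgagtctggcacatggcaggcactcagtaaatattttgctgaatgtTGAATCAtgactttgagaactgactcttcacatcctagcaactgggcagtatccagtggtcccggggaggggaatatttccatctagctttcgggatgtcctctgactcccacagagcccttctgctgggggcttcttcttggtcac
Klk10 upstream region: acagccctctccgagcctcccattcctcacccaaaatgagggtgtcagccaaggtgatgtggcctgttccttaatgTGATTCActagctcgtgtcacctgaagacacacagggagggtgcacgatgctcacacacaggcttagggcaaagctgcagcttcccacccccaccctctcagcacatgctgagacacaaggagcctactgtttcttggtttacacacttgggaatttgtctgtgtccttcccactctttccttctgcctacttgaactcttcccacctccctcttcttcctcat
Klk7 and Klk8 region: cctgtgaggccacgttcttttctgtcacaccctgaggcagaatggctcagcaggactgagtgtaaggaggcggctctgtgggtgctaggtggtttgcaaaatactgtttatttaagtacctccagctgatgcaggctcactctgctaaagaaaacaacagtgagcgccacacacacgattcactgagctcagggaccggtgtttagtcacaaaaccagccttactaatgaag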

How the data were processed

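The authors deposited 7 tables of raw counts per gene symbol and 4 lists of broad ATAC-seq regions in mm10. In the lists the deposited values are the fold enrichment over background as a ratio, the -log10 p and -log10 q, and a whole-number score, made with MACS2. The study's methods name Kallisto for the RNA-seq, and which tool made the counts is not stated. The members and the gene lists (other kallikreins, other trypsin-like proteases, inhibitors, substrates and targets, other proteases of cornification, and cell type markers) were chosen with earlier results of these data known. Counts were fitted in edgeR 4.0.16 (R 4.3.3, limma 3.58.1) with TMM factors, filterByExpr and the quasi-likelihood test over 14045 genes in 4 groups, with Benjamini-Hochberg adjustment, all two-sided. The biological coefficient of variation was 31.6%, and replicates correlated at r of 0.946 to 0.957 across genes, which are not independent. Log2 CPM used a prior count of 2. DESeq2 1.42.0, other filters and prior counts, each library left out in turn and a replicate block were alternatives. That replicate numbers pair libraries was not established (r of 0.154 for the WT conditions and -0.0386 for the wounded genotypes). Named genes were the 10 members, Grhl3, in each list the 2 most abundant genes and those with the largest difference in each direction of each tested comparison among genes with an unadjusted P under 0.05 and groups that did not overlap, the 3 genes most like Prss22, Asprv1 and Klk5 by Pearson r, Xist and Y-linked genes, and the most abundant gene of each marker list; other genes were named after their values were seen, to spell out a count. Of the genes most like Prss22, 1 is not reported here. Regions were joined and assigned with GENCODE vM21 genes in Python 3.11.15 (pandas 2.3.3, numpy 2.4.6, pysam 0.24.0, samtools 1.23.1), and figures drawn with matplotlib 3.10.9.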

Additional observations from a re-analysis of the deposited data

Results flagged for a closer look

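For some named genes every library moved one way with wounding in WT and the other way in the libraries labelled GRHL3 KO. With 1 KO-labelled unwounded library the difference between these responses was not tested, and that library also stood apart in Xist and the Y-linked genes. Among the 10 members, the log2 wound response was -0.31 in WT and 0.36 in KO-labelled libraries for Klk11, and -0.85 and 0.61 for Asprv1. For the genes most like Asprv1, where this follows from their being chosen by correlation with it over the same libraries, it was -0.99 and 0.96 for Polr2i, -0.22 and 0.11 for Maoa, and -0.68 and 0.63 for Ltb4r2. It was -0.63 and 0.24 for Dsc1, -0.50 and 0.25 for Ctsd, and 0.47 and -0.31 for Prss23. For Prss36 it was 3.92 and -0.13, the first of which rests on 2 counts in the WT unwounded libraries. The WT values are fitted log2 fold changes, and the KO-labelled values are plain differences of mean log2 CPM. Dsc1, Ctsd and Prss36 were named for their WT wound difference among genes with non-overlapping groups, so that part was set by the choice. The WT difference of Asprv1 was known beforehand. How many of all tested genes have this pattern was not counted. In WT alone, groups did not overlap for 15.2% (higher) and 18.3% (lower) of all tested genes.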

How the results depend on the processing

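Leaving out a library left its group with 1, which was then assumed to vary like the other groups. Under the 12 alternatives for each fitted difference, 4 of the 10 members kept one sign for the wound in WT (Klk5, Klk11, Prss8 and Asprv1) and 5 did so between genotypes in wounded skin (Klk8, Klk11, Prss8, Prss22 and Asprv1). The run without the KO-labelled unwounded library was chosen after seeing the data.

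For the wound in WT, the 4 genes past the adjusted threshold became 96 with no filter, 0 with at least 10 counts in every library, 0 with only the 4 libraries compared, 23 with DESeq2, 0 without the KO-labelled unwounded library, 6 with the replicate block, and 0 to 29 with each library left out. The 680 genes with an unadjusted P under 0.05 were 719 with the replicate block and 756 with DESeq2. The 1 member under that threshold became 2 with no filter, 2 to 3 with each library left out, and was 1 with the replicate block.

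Between genotypes in wounded skin, the 567 genes with an unadjusted P under 0.05 were 596 with the replicate block, 573 with DESeq2 and 420 to 855 with each library left out. The 0 genes past the adjusted threshold became 51 with no filter, 2 with DESeq2, 0 with the replicate block and 0 to 21 with each library left out. The 2 members under the unadjusted threshold were 2 with the replicate block and 1 to 3 with each library left out, and the 0 members past the adjusted threshold became 2 with no filter and 0 to 1 with each library left out. In KO-labelled skin the 1346 genes past the 2-fold rule became 459 with at least 10 counts in every library and 2567 to 2732 with each wounded library left out.

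Of the members with a listed ATAC-seq region, the 4 in WT unwounded skin became 1 at a fold enrichment of at least 4 and 1 at distance 0. The 10 in WT wounded skin became 5 with lists of equal length, 4 at distance 0 and 6 at 2 kb, and the 10 in KO-labelled unwounded skin became 6 with lists of equal length. The 8 in KO-labelled wounded skin became 4 at a q of at most 0.01, 4 at a fold enrichment of at least 4, 4 with lists of equal length, 3 at distance 0 and 4 at 2 kb. Shares of all protein-coding genes were counted only for the full lists and for lists of equal length, and are given above. At the other settings the counts of members have no such share beside them, and nothing is read from them. The causes of these shifts were not tested. The study's methods give a lower bound for the reads per ATAC-seq sample, and the depth of each library is not given, which limits what an unlisted region says.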

Other observations

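Wound keratinocyte markers (5 of 5 tested, Krt16 the most abundant) summed to 4469 and 5570 CPM in WT unwounded, 6523 and 9689 in WT wounded, 2623 in KO-labelled unwounded and 7025 and 4850 in KO-labelled wounded libraries. At an unadjusted P under 0.05, 4 were higher in WT wounded skin and 2 were lower in KO-labelled than in WT wounded skin. Hair follicle markers (8 of 8, Krt15 the most abundant) summed to 6223, 5523, 4893, 3905, 7144, 3910 and 4830 CPM in the same order, with 4 lower in WT wounded skin and 1 lower between genotypes. Sebaceous gland markers (4 of 6 tested, Mgst1 the most abundant) summed to 68.1, 90.2, 60.6, 58.9, 95.4, 44.4 and 60.9 CPM, with 0 past that threshold.

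Markers of other cells were low. Fibroblast markers (5 of 6 tested, Col3a1 the most abundant) summed to 28.7, 14.5, 19.6, 46.6, 11.0, 25.6 and 37.8 CPM, with 1 higher in WT wounded skin. Endothelial markers (5 of 5, Pecam1 the most abundant) summed to 1.55, 2.14, 20.7, 5.90, 0.815, 7.75 and 7.42 CPM, with 3 higher in WT wounded skin. Leukocyte markers (4 of 6, Cd68 the most abundant, Cd3e at 0) summed to 4.0, 2.08, 4.86, 6.94, 2.0, 2.76 and 6.37 CPM, with 1 higher in WT wounded skin. Mast cell markers (1 of 5, Kit the most abundant, Cpa3 and Mcpt4 at 0) summed to 5.04, 2.68, 3.12, 2.08, 4.96, 3.09 and 4.48 CPM, with 0 past the threshold. Melanocyte markers (3 of 4, Dct the most abundant) summed to 2.52, 0.952, 7.15, 3.89, 1.11, 5.78 and 5.81 CPM, with 1 higher in WT wounded skin. Erythroid markers (1 of 4, Alas2) were at 0.91 CPM or less, with Hba-a1, Hbb-bs and Hbb-bt at 0. Of all these lists, 0 genes passed after adjustment in either tested comparison.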
